A study of Mus musculus with 6 samples.

Results

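The genes described here encode 10 proteins that recognise the 5′ end or the double-stranded form of RNA in the cytoplasm, or that pass that signal on: Ddx58, Ifih1, Dhx58, Mavs, Ifit1, Ifit2, Ifit3, Eif2ak2, Adar and Zbp1. They were chosen by symbol and function, with earlier results of these data known, as 10 of the 46983 genes in the count tables, and all 10 were expressed above the filter for testing. RNA from naïve CD4 T cells was sequenced after rRNA depletion in 3 control and 3 Rnmt cKO libraries. RNMT methylates the cap guanosine of RNA polymerase II transcripts, and the comparison asks which transcripts depend on it in resting T cells. Control mice were Rnmt fl/fl without Cre, and Rnmt cKO mice were Rnmt fl/fl with CD4cre, in which a Cre transgene under Cd4 regulatory sequence removes Rnmt exon 3 from the double-positive thymocyte stage onwards. Both groups carried the floxed alleles on a C57B6/J background, all libraries are labelled male, and no age is given in the sources used here. Cre and loss of Rnmt coincide, so that their effects cannot be told apart. The cells were sorted from lymph nodes as TCRb+, CD4+, CD62L+, CD44- and DAPI-.

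In the cytoplasm, RIG-I (encoded by Ddx58) binds RNA with a 5′ triphosphate or diphosphate, and MDA5 (Ifih1) binds long double-stranded RNA. Both signal through MAVS on mitochondria to induce type I interferon. Interferon in turn raises the transcription of a set of genes to which most of these sensors themselves belong. IFIT1 binds the 5′ end of RNA whose cap structure lacks ribose methylation. The guanosine N-7 methyl group added by RNMT and the ribose methyl group added by CMTR1 are among the marks by which host mRNA is distinguished from foreign RNA.

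Interferon-stimulated genes often carry a short promoter element with a pair of GAAA repeats separated by 2 bases, to which a complex containing IRF9 binds. The letters GAAANNGAAA and, for the other strand, TTTCNNTTTC were searched in the RefSeq promoter windows of build GRCm38.p6, which run from 250 bases before to 50 bases after each start. Of the 10 sensing genes, 8 had a window, and 5 of these 8 held the letters. Over the whole table, the letters were present in at least 1 window of 3.99% of 27025 genes. The stretches below are shown because they hold the matches of the 5 sensors that have any, and the capitals mark the matches, which do not overlap one another.
Ifit1, chr19:34640765-34640833, plus strand: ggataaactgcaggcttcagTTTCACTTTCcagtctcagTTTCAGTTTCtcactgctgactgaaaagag
Ifit3, chr19:34583353-34583436, plus strand: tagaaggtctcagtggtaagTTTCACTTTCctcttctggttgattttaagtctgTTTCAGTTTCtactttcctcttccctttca
Eif2ak2, chr17:78882535-78882564, minus strand: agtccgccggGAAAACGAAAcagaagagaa
Ifih1, chr2:62646206-62646233, minus strand: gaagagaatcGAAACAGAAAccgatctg
Ddx58, chr4:40239804-40239833, minus strand: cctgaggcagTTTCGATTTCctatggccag

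Each stretch reads 5′ to 3′ on the strand of the gene. Positions count from the RefSeq starts of the windows, which can differ by some bases from the gene coordinates given below. Ifit1 and Ifit3 held 2 matches each, all before the start, with first bases at -104 and -85 for Ifit1 and at -156 and -122 for Ifit3. The single matches of Eif2ak2, Ifih1 and Ddx58 began after the start, at positions 19, 33 and 3 counted from the first transcribed base as 1. The windows of Mavs, Ifit2 and Adar did not hold these letters, which says only that these letters are not in these windows. Dhx58 and Zbp1 had no window in the table.

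In the Rnmt cKO libraries 6 of the 10 sensing genes rose and none fell, against 8.00% of the 12336 tested genes that rose and 6.84% that fell at an adjusted p under 0.05, 14.8% in all. The 6 were Ifih1, Dhx58, Ifit1, Ifit3, Eif2ak2 and Zbp1, and their log2 fold changes (Rnmt cKO over control) lay between 0.49 and 1.04. Ddx58, Mavs, Ifit2 and Adar did not pass the test, with log2 fold changes of 0.24, -0.00, -0.10 and -0.05. Without control library 3, or without Rnmt cKO library 1, 4 genes rose, since Dhx58 and Ifit3 lost their call. The median over the 10 genes was 0.55, and over all tested genes it was 0.01. Every Rnmt cKO value lay above every control value for 6 members, 5 of which also passed the test and the other of which was Ddx58, and 16.6% of all tested genes were separated in this direction. No member was separated in the opposite direction, in which 14.9% of tested genes were.

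**Figure D1:**
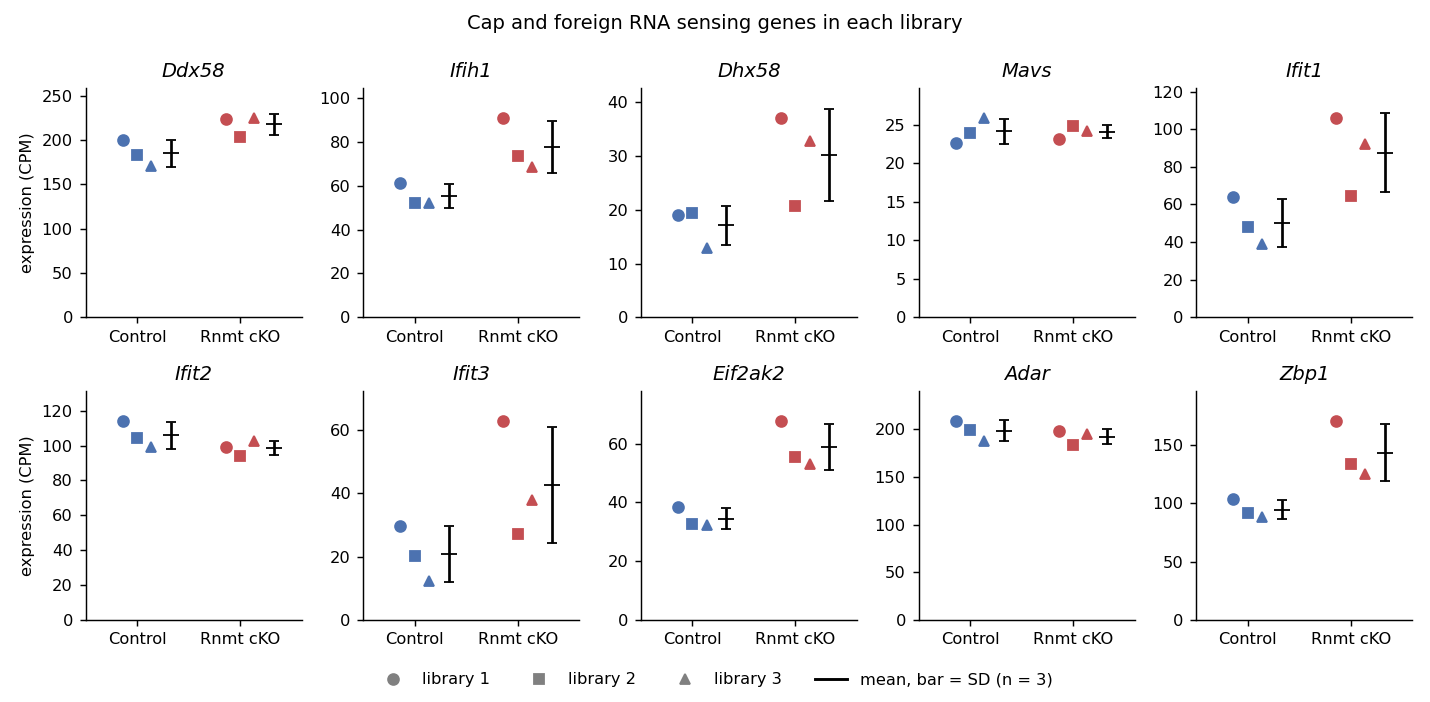
Expression of the 10 sensing genes in each library, in CPM (sense counts scaled to a common library size, linear axes from 0), with library 1 as a circle, 2 as a square and 3 as a triangle, and the mean with SD of 3 libraries beside each group. The groups do not overlap for Ddx58, Ifih1, Dhx58, Ifit1, Eif2ak2 and Zbp1, while they overlap for Mavs, Ifit2, Ifit3 and Adar.

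Sense counts assigned to genes ranged from 8873413 to 11277764 per library. In CPM, that is sense counts scaled to a common library size, Rnmt itself stood at 51.4, 58.6 and 57.8 in controls and at 41.9, 37.4 and 26.6 in Rnmt cKO, a log2 fold change of -0.67 ± 0.20 (SE, edgeR exact test, adjusted p = 0.000350). These counts cover the whole gene and are not limited to the deleted exon. The naïve CD4 T cell markers were present in every library, with a summed level of 5197 to 5706 CPM in controls and 5766 to 6512 CPM in Rnmt cKO. Of these 9 markers, 2 rose and 2 fell. Counts of replicates differed by more than sampling noise (chi-square per degree of freedom from 3.64 to 22.9). The study describes the libraries as coming from 3 control and 3 Rnmt cKO mice. CPM are scaled by the trimmed mean of M-values (TMM) unless stated otherwise. The p-values of the edgeR exact test were adjusted by the Benjamini-Hochberg method over all tested genes. In bulk RNA a change in the number of cells that express a gene and a change in RNA per cell cannot be told apart.

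Of the RIG-I-like receptors, Ifih1 and Dhx58 rose and Ddx58 did not pass the test. Ddx58 (ENSMUSG00000040296, mm10 chromosome 4, 40203773 to 40239828, minus strand) was expressed at 200.3, 183 and 171 CPM in controls and at 224, 204 and 225 CPM in Rnmt cKO. The Rnmt cKO libraries were all above the controls, but only narrowly, since the lowest Rnmt cKO value exceeded the highest control value by less than the spread within either group. The log2 fold change was 0.24 ± 0.08 (SE, n = 3 per group, edgeR exact test, adjusted p = 0.101). Scaling by library size alone gave 0.36 (adjusted p = 0.00293), but on that scale the median of all tested genes also moved to 0.14.

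Ifih1 (ENSMUSG00000026896, chromosome 2, 62595798 to 62646255, minus strand) stood at 61.4, 52.1 and 52.1 CPM in controls and at 90.9, 73.4 and 68.5 CPM in Rnmt cKO. The lowest Rnmt cKO library was above the highest control library. It rose by a log2 fold change of 0.49 ± 0.15 (SE, edgeR exact test, adjusted p = 0.00192), a 1.41-fold higher mean. Dhx58 (ENSMUSG00000017830, chromosome 11, 100694884 to 100704271, minus strand) encodes LGP2, which lacks the signalling domains of the other two receptors and modulates their activity. It measured 19.1, 19.3 and 12.9 CPM in controls and 37.1, 20.6 and 32.9 CPM in Rnmt cKO. Rnmt cKO library 2 lay just above the 2 higher controls. The fitted log2 fold change was 0.82 ± 0.32 (SE, edgeR exact test, adjusted p = 0.00379), and the call was lost without control library 3 (0.65, adjusted p = 0.0567) or without Rnmt cKO library 1 (0.64, adjusted p = 0.0600).

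The adaptor through which RIG-I and MDA5 signal did not rise with Ifih1. Mavs (ENSMUSG00000037523, chromosome 2, 131234063 to 131248025, plus strand) stood at 22.6, 24.0 and 25.9 CPM in controls and at 23.2, 24.8 and 24.2 CPM in Rnmt cKO. All 3 Rnmt cKO values lay within the control range. The log2 fold change was -0.00 ± 0.06 (SE, edgeR exact test, adjusted p = 1), and it ranged from -0.05 to 0.12 over 16 alternative analyses, none of which called it. Within each library, the ratio of Ifih1 counts to Mavs counts was 2.71, 2.17 and 2.01 in controls and 3.92, 2.96 and 2.83 in Rnmt cKO. These ratios did not overlap between groups, whereas those of Ifih1 or Dhx58 to Ddx58 did. The pairs of genes for such ratios were chosen after their values were seen, and no test was made of them.

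The IFIT genes lie together on chromosome 19 and were not alike in their response. Ifit1 (ENSMUSG00000034459, 34640871 to 34650009, plus strand) stood at 63.7, 47.8 and 38.8 CPM in controls and at 106, 64.4 and 92.2 CPM in Rnmt cKO. Although the groups did not overlap, Rnmt cKO library 2 was above control library 1 by less than 1 CPM. The mean was 1.75-fold higher (log2 fold change 0.80 ± 0.30, SE, edgeR exact test, adjusted p = 0.00103), and Ifit1 was called in all 16 alternative analyses. Ifit3 (ENSMUSG00000074896, 34583531 to 34588731, plus strand) encodes a partner that binds IFIT1 and stabilises it. It measured 29.8, 20.1 and 12.2 CPM in controls and 63.0, 27.2 and 38.0 CPM in Rnmt cKO. Here the groups overlapped, because Rnmt cKO library 2 was below control library 1. The log2 fold change of 1.04 ± 0.51 (SE, edgeR exact test, adjusted p = 0.0132) was the largest of the 10 genes and also the one with the largest error. Its call was lost without control library 2 (1.02, adjusted p = 0.0893), control library 3 (0.77, adjusted p = 0.115) or Rnmt cKO library 1 (0.65, adjusted p = 0.154).

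Ifit2 (ENSMUSG00000045932, 34550694 to 34576419, plus strand) encodes an IFIT protein that binds AU-rich double-stranded RNA. It stood at 114, 104 and 99.0 CPM in controls and at 99.3, 94.1 and 103 CPM in Rnmt cKO. The groups overlapped, with 2 of 3 Rnmt cKO values inside the control range. Rnmt cKO over control gave a log2 fold change of -0.10 ± 0.07 (SE, edgeR exact test, adjusted p = 0.583). Relative to Ifit2 in the same library, the count of Ifit1 was 0.557, 0.459 and 0.392 in controls and 1.07, 0.684 and 0.900 in Rnmt cKO. The corresponding ratio of Ifit3 to Ifit2 was 0.261, 0.193 and 0.124 in controls and 0.634, 0.289 and 0.371 in Rnmt cKO. Every Rnmt cKO ratio was above every control ratio in both cases, although the CPM values of Ifit3 overlapped.

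**Figure D2:**
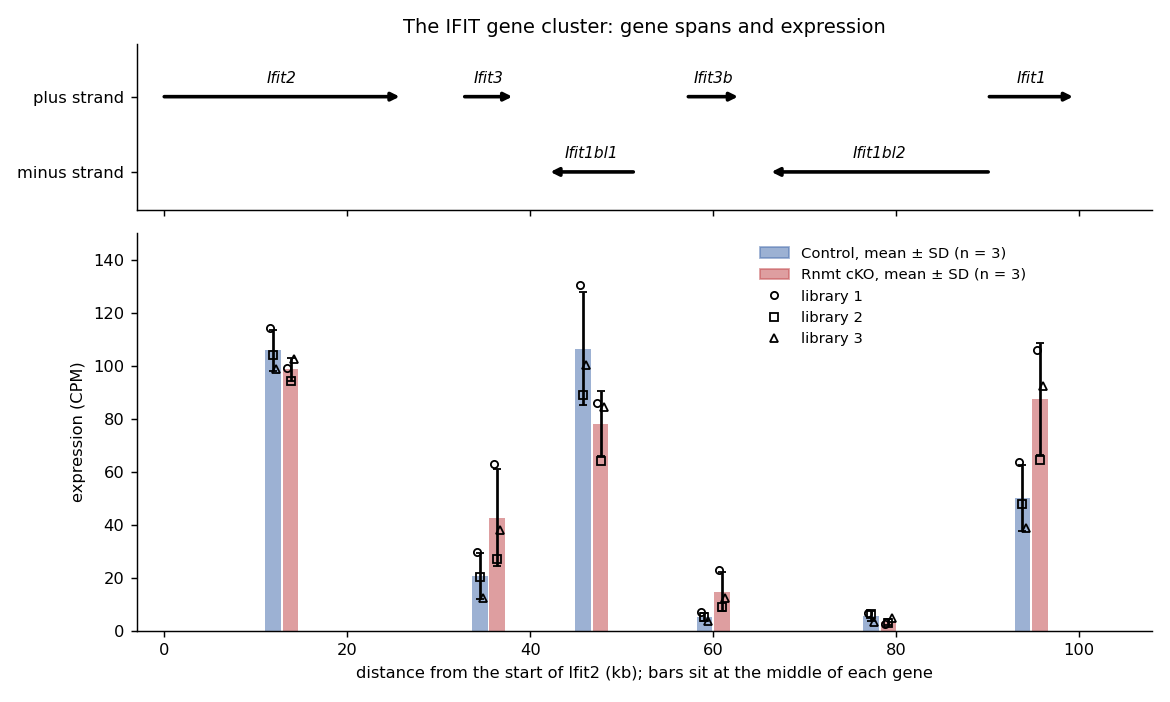
The IFIT genes of chromosome 19 as arrows in the direction of transcription, by distance from the start of Ifit2 in kb, above bars of mean expression in CPM with SD and the 3 libraries of each group as symbols. Ifit1, Ifit3 and Ifit3b are higher in Rnmt cKO, Ifit1bl1 is lower, with a call lost under 6 alternatives, and Ifit2 and Ifit1bl2 did not pass the test.

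Of the remaining IFIT genes of the cluster, Ifit3b was higher and Ifit1bl1 lower. Ifit3b, a close copy of Ifit3, stood at 6.92, 5.08 and 3.86 CPM in controls and at 23.1, 8.93 and 12.3 CPM in Rnmt cKO, with a log2 fold change of 1.48 ± 0.46 (SE, edgeR exact test, adjusted p = 0.000411). The Ifit3b window held the same 84 bases as shown for Ifit3 (chr19:34607749-34607832). Of the 75-base words of the Ifit3 transcripts, 41.1% were also in Ifit3b, and 35.7% of those of Ifit3b were in Ifit3, so that reads could be lost or shared between the pair and both values are uncertain. Ifit1bl1 fell, from 130.4, 89.0 and 100.2 CPM to 85.9, 63.9 and 84.6 CPM (log2 fold change -0.45 ± 0.21, SE, edgeR exact test, adjusted p = 0.0335). It was called in 10 of 16 alternatives, and its call was lost without control library 1 (-0.28, adjusted p = 0.274), control library 3 (-0.49, adjusted p = 0.0680) or Rnmt cKO library 2 (-0.32, adjusted p = 0.205). Ifit1bl2 was low and did not pass the test (-0.72 ± 0.40, adjusted p = 0.149).

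Ifit1 and Ifit1bl2 are transcribed away from each other from RefSeq starts 146 bases apart, and the 69 bases shown for Ifit1 lie between these starts and were also in the Ifit1bl2 window, on the other strand. Their levels differed widely. Ifit1bl2 ranged from 3.42 to 6.81 CPM in controls and from 2.53 to 4.65 CPM in Rnmt cKO, while Ifit1 lay above 38 CPM in every library. Of the 75-base words of Ifit1, 5.19% were shared with Ifit1bl2. Ifit1 was also the member with the largest share of its reads on the opposite strand, 4.68%, followed by Eif2ak2 with 3.50%, while no other member exceeded 0.353%. Counts were taken by strand, and over the whole libraries opposite-strand reads made up 4.47% to 4.97%.

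Of the proteins that bind double-stranded or left-handed RNA, Eif2ak2 and Zbp1 rose. Eif2ak2 (ENSMUSG00000024079, chromosome 17, 78852564 to 78882573, minus strand) encodes PKR, which phosphorylates the translation factor eIF2α when it is bound to double-stranded RNA. It stood at 38.5, 32.7 and 32.2 CPM in controls and at 67.8, 55.3 and 53.1 CPM in Rnmt cKO. The gap between the groups was wider than the spread within the controls, and the log2 fold change of 0.77 ± 0.14 (SE, edgeR exact test, adjusted p = 1.64e-07) had the smallest adjusted p of the 10 genes. Over the alternatives it stayed between 0.65 and 0.90. Zbp1 (ENSMUSG00000027514, chromosome 2, 173206612 to 173218923, minus strand) encodes a sensor of Z-form RNA that can start necroptosis. It measured 104, 91.2 and 88.1 CPM in controls and 171, 134 and 125 CPM in Rnmt cKO. All Rnmt cKO libraries were above all controls, with a log2 fold change of 0.60 ± 0.15 (SE, edgeR exact test, adjusted p = 8.00e-05).

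Adar (ENSMUSG00000027951, chromosome 3, 89715022 to 89753446, plus strand) encodes the deaminase that converts adenosine to inosine in double-stranded RNA and so limits its detection by MDA5 and PKR. It stood at 209, 199 and 187 CPM in controls and at 199, 184 and 195 CPM in Rnmt cKO. The groups overlapped, and the log2 fold change was -0.05 ± 0.06 (SE, edgeR exact test, adjusted p = 0.838). The ratio of Eif2ak2 to Adar counts was 0.184, 0.164 and 0.172 in controls and 0.341, 0.301 and 0.273 in Rnmt cKO. For Zbp1 over Adar it was 0.497, 0.458 and 0.470 in controls and 0.859, 0.729 and 0.642 in Rnmt cKO. Both ratios were higher in every Rnmt cKO library than in any control library.

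**Figure D3:**
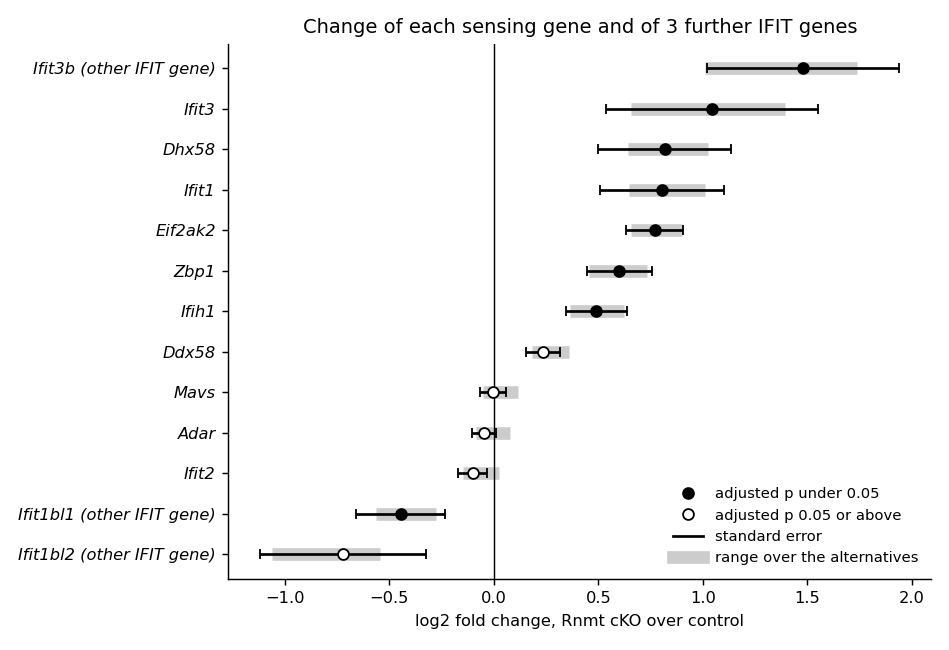
Log2 fold change of Rnmt cKO over control for the 10 sensing genes and the 3 other IFIT genes, with the standard error as a black bar and the range over 16 alternative analyses as a grey band, filled where the adjusted p was under 0.05. Ifih1, Zbp1, Eif2ak2, Ifit1, Dhx58 and Ifit3 lie between 0.49 and 1.04, and the grey bands of Mavs, Adar and Ifit2 cross 0.

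The members also differed in how far libraries of 1 group lay apart. Within the controls the highest library was 2.44 times the lowest for Ifit3, 1.64 times for Ifit1 and 1.5 times for Dhx58, and between 1.12 and 1.20 times for the other members. Within Rnmt cKO the same genes were the most spread, at 2.32, 1.65 and 1.80 times. Control library 1 was the highest control for 8 of the 10 genes and control library 3 the lowest for 8. Rnmt cKO library 1 was the highest of its group for 7 genes, and library 2 was the lowest for 6. Ifit3, Dhx58 and Ifit1, which had the largest fold changes of the 10, were also the genes that varied most among replicates.

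Per length, the members ranged from average to high for these cells. Levels were expressed as CPM per kb of merged exons (RPKM), on which scale the median tested gene stood at 6.64 in controls. In controls, Ifit2 (27.0 ± 2.00 RPKM, SD, n = 3), Zbp1 (26.8 ± 2.38), Ddx58 (26.2) and Adar (24.5) were at the top, followed by Ifit1 (18.9) and Ifit3 (11.9). Mavs (7.23), Ifih1 (6.76), Eif2ak2 (6.74) and Dhx58 (5.23) were near the median. Among neighbours in this order, only Eif2ak2 and Dhx58 did not overlap. In Rnmt cKO the order began with Zbp1 (40.6 RPKM), Ifit1 (33.0) and Ddx58 (30.8), and Mavs (7.20) was last of the 10. Ifit2, the highest member in controls, ranked 4 in Rnmt cKO at 25.1 RPKM. Taking the length of the longest transcript in place of merged exons put Ddx58 at 47.7 RPKM in controls, so the order among the upper 4 genes depends on the length used.

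Transcripts of the interferon ligands were barely detected. Of 21 interferon genes, none passed the filter, 16 had no count in any library, and the other 5 held 5 counts in all 6 libraries together. A count of 0 allows a level of up to 0.338 CPM in the shallowest library, on library size without TMM scaling and for counting error only. Among 10 genes of the type I interferon receptor pathway, 5 rose and 0 fell (median 0.25 on the log2 scale). The receptor gene Ifnar1 gave -0.01 ± 0.05 (SE, adjusted p = 0.973). The transcription factor genes Stat2 (0.41 ± 0.10, adjusted p = 0.00346) and Irf9 (0.57 ± 0.12, adjusted p = 1.72e-05) rose, the former not without Rnmt cKO library 1 (0.32, adjusted p = 0.0588). Isg15, a ubiquitin-like protein, rose from between 5.29 and 7.39 CPM to between 10.9 and 22.3 CPM (log2 fold change 1.49 ± 0.34, adjusted p = 1.80e-06). Socs1, an inhibitor of the receptor kinases, rose from between 22.7 and 23.1 CPM to between 38.1 and 46.1 CPM (0.91 ± 0.09, adjusted p = 1.16e-11).

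Of 19 tested regulators of RIG-I and components of MAVS signalling, 2 rose, 1 fell and 16 did not pass the test, with a median of 0.02, close to that of all genes. Irf7, a transcription factor that induces interferon and is itself interferon-inducible, rose by 0.58 ± 0.29 (SE, adjusted p = 0.0309), but its groups overlapped and the call was lost without control library 2, control library 3 or Rnmt cKO library 1 (0.39 to 0.51, adjusted p = 0.192 to 0.232). Nlrx1, a mitochondrial protein reported to restrain MAVS, rose by 1.02 ± 0.20 (adjusted p = 5.79e-05). Rnf125, a ubiquitin ligase that targets RIG-I, fell by 0.38 on the log2 scale (SE 0.10, adjusted p = 0.0218), a call lost without control library 1, control library 3 or Rnmt cKO library 1 (-0.35 to -0.32, adjusted p = 0.109 to 0.168). Over all alternatives, Rnf125 was called in 9 of 16. Irf3, the factor that is activated downstream of MAVS, gave -0.11 ± 0.09 (adjusted p = 0.590). Trim25, a ubiquitin ligase linked to RIG-I activation, gave 0.20 ± 0.10 (adjusted p = 0.237).

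Of 8 tested genes of the 2-5A system, which activates RNase L on double-stranded RNA, 4 rose and none fell (median 0.55). They were Oas2 (1.13 ± 0.42, adjusted p = 0.000989), Oas1a (1.01 ± 0.38, adjusted p = 0.00595), Oasl2 (0.89 ± 0.40, adjusted p = 0.0157) and Oas3 (0.67 ± 0.32, adjusted p = 0.0277). Without control library 3 or Rnmt cKO library 1, Oas1a (0.76 and 0.82, adjusted p = 0.0662 and 0.0746), Oas3 (0.50 to 0.55, adjusted p = 0.196 to 0.209) and Oasl2 (0.59 to 0.81, adjusted p = 0.130 to 0.171) were not called, the last 2 also not without control library 2. Of 8 genes of other antiviral proteins, 4 rose and none fell (median 0.42). Zc3hav1, Ddx60 and Dhx36 of this list did not pass the test (log2 fold changes 0.14, 0.04 and 0.21). Mx1 (1.21 ± 0.22, adjusted p = 3.76e-05) and Mx2 (0.99 ± 0.28, adjusted p = 0.00238) encode dynamin-like GTPases, Rsad2 (1.18 ± 0.66, adjusted p = 0.0256) encodes viperin, and Isg20 (0.63 ± 0.22, adjusted p = 0.0128) an exonuclease. Rsad2 lost its call without control library 3 or Rnmt cKO library 1 (0.78 and 0.99, adjusted p = 0.0795 and 0.156), and Isg20 without these or control library 2 (0.49 to 0.66, adjusted p = 0.0580 to 0.117).

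The lists nearest to the functions of PKR, ADAR and ZBP1 held no gene that passed the test. These lists are short and only 14.8% of all tested genes passed, so the absence of a call says little about these functions. None of 9 tested eIF2 kinases, PKR partners and eIF2 phosphatase subunits passed the test (median 0.03), so that Eif2ak2 was the only one of the 4 eIF2 kinase genes to do so. Of the 9, Eif2s1 came nearest to the threshold (0.28 ± 0.10, SE, edgeR exact test, adjusted p = 0.0568). Its groups did not overlap, and it was called in 5 of 16 alternatives. None of 4 tested partners of ZBP1 in cell death passed (median 0.08), and Mlkl, the executor of necroptosis, was below the filter. Adarb1, the only other tested adenosine deaminase of this family, was low and gave -0.92 ± 0.25 (SE, adjusted p = 0.0655). Among 7 genes of cap metabolism, Rnmt alone passed the test, and Cmtr1 gave 0.04 ± 0.20 (adjusted p = 0.952). Of 4 tested genes of endosomal receptors and their partners, the adaptor gene Myd88 rose (0.38 ± 0.14, adjusted p = 0.0222, lost without any 1 control library or Rnmt cKO library 3, at 0.22 to 0.42 and adjusted p = 0.0571 to 0.142). Tlr7, the only receptor gene among these 4, did not pass the test (0.18 ± 0.25). Of 5 tested genes of cytosolic DNA sensing Tmem173, which encodes STING, rose (0.39 ± 0.08, adjusted p = 0.00139). Over all these lists, including the other IFIT genes, 18 of 78 tested genes rose and 3 fell, with a median of 0.13. Without control library 3, or without Rnmt cKO library 1, 10 of them rose, and without control library 1, 1 fell. Losses named for single genes of these lists are those with 1 library left out, and further calls were lost under other alternatives. Over all alternatives, Myd88 was called in 9 of 16, Rsad2 in 10 of 15 and Stat2 in 14 of 16. Irf7, Oas3, Oasl2 and Isg20 were called in 12 of 16, and Oas1a in 12 of 15. Mx2 was called in 14 of 15, and Oas2 and Tmem173 in 15 of 16.

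**Figure D4:**
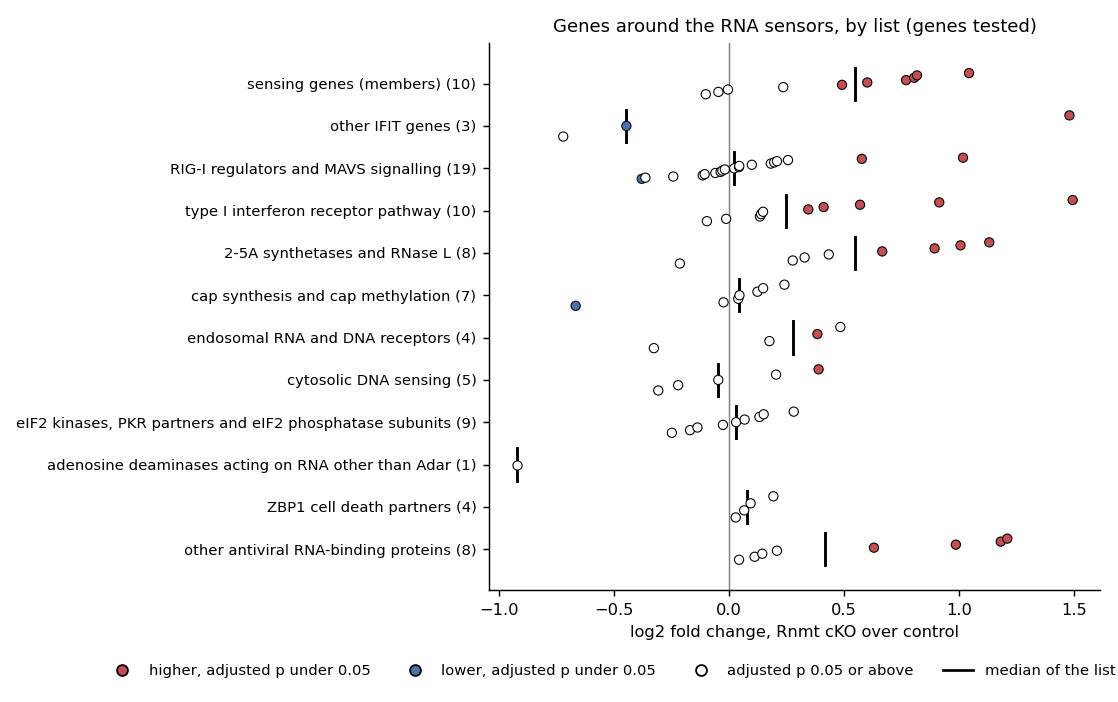
Log2 fold change of Rnmt cKO over control for each tested gene of the 10 sensing genes and of the lists around them, with genes that passed the test higher in red, lower in blue, the rest in white, and the median of each list as a vertical line. The medians of the sensing genes and of the 2-5A list, both 0.55, lie to the right of those of MAVS signalling, 0.02, and of the eIF2 kinase list, 0.03.

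The profiles nearest to those of Ifit1 and Ddx58 were sought among 9700 tested genes with a mean of at least 5 CPM, as the root mean square difference of log2 CPM centred over the 6 libraries. For Ifit1 the nearest 5 were Cmpk2 (0.0606), Oas3 (0.115), Rtp4 (0.125), Irf7 (0.125) and Dhx58 (0.134). The member Eif2ak2 was at rank 26, Zbp1 at rank 55 and Ifit3 at rank 98, whereas Ifit2 was at rank 4746 and Mavs at rank 5825. For Ddx58 the nearest were Brat1, Fam189b, Arsa, Vrk3 and Ehmt2, at 0.0229 to 0.0327, and none of these passed the test. The 6 libraries include the group difference, so the likeness holds both that difference and the spread within groups.

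Members with and without the promoter letters can be set side by side, as a description. Of the 5 members with a match, Ifih1, Ifit1, Ifit3 and Eif2ak2 rose and Ddx58 did not pass the test, and of the 3 with a window but no match, Mavs, Ifit2 and Adar, none passed. The other IFIT genes also had a window with a match, and of these Ifit3b rose, Ifit1bl1 fell and Ifit1bl2 did not pass the test. The Ifit1bl1 matches began at -104 and -23, 1 in each of its windows. Among 8492 tested genes with a window, 14.9% of the 329 whose window held the letters rose and 7.29% fell. Of the 8163 without them, 7.98% rose and 6.47% fell. Most genes with these letters therefore did not pass the test in either direction.

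Markers of other cell types differed between the groups beside these results, and their part in the results was not tested. Of 8 proliferation markers 7 rose, and their summed level was 159 to 181 CPM in controls and 406 to 442 CPM in Rnmt cKO. Of 6 B cell markers, 3 rose, among them Cd79b and Ms4a1, while Ighm fell, and the sum went from 315 to 377 CPM in controls to 220 to 269 CPM in Rnmt cKO. Myeloid markers summed to 7.57 to 10.1 CPM in controls and 13.3 to 26.1 CPM in Rnmt cKO, and 3 of the 4 tested were higher in every Rnmt cKO library than in any control. These were Lyz2, which rose, Cd68 (1.00, adjusted p = 0.0820) and Itgam (0.65, adjusted p = 0.312), while Cd14 was at 0 in 5 of the 6 libraries. Dendritic cell markers summed to 17.0 to 18.9 CPM and 17.2 to 24.2 CPM, and Siglech, a marker of the plasmacytoid cells that make interferon, stayed below 0.54 CPM throughout. NK cell markers summed to 4.30 to 6.81 CPM and 8.01 to 16 CPM, and Eomes rose. Both CD8 markers fell. Memory and effector markers summed to 121 to 132 CPM and 115 to 144 CPM, but of the 2 tested, 1 rose and 1 fell, each without overlap between groups.

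The share of uniquely mapped reads that fell in no gene also varied, at 36.1%, 39.7% and 46.1% in controls and 47.9%, 46.5% and 31.8% in Rnmt cKO. The log2 ratios of Rnmt cKO over control are given for the libraries under 40% (2 controls and 1 Rnmt cKO) and then for those above (1 control and 2 Rnmt cKO). For the genes that rose they were 0.74 and 1.09 for Ifit1, 0.58 and 0.92 for Eif2ak2, 0.36 and 0.78 for Zbp1, 0.28 and 0.65 for Ifih1, 0.77 and 1.09 for Dhx58, and 0.63 and 1.74 for Ifit3. For the others they were 0.23 and 0.32 for Ddx58, 0.06 and -0.11 for Mavs, -0.09 and -0.03 for Ifit2, and -0.07 and 0.03 for Adar. Each set has a group of 1 library, and these are the libraries in which the genes were called, so the ratios are a description and no test was made.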

How the data were processed

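RNA from sorted naïve CD4 T cells was sequenced by the authors with a TruSeq kit after rRNA depletion, in 3 control and 3 Rnmt cKO libraries. Per the labels and the study's methods, reads were aligned to mm10 with STAR 2.5.2b and GENCODE vM12, and the authors deposited raw counts per gene for each strand setting. The signal columns of the authors' deposited comparison table are counts divided by 1 constant per library. They matched the sense column for 100% of genes (relative tolerance 1e-06) and were used for nothing else, and its fold changes and p-values were not used. Sense counts were tested in edgeR 4.0.16 (R 4.3.3) with TMM factors, more than 1 CPM in at least 3 libraries (12336 genes), tagwise dispersions, the exact test and Benjamini-Hochberg adjustment at 0.05. SEs come from log2 CPM with a prior count of 2. Lines that name no gene were kept out of library sizes (31.8% to 47.9% of uniquely mapped reads fell in no gene). Symbols, lengths and coordinates come from GENCODE vM21, in which 46488 of the gene identifiers were found.

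The sensing genes, the lists around them and the cell type markers were chosen with earlier results of these data known. All 10 members are reported. From each list, every gene past the threshold is named where there are 4 or fewer, otherwise the 2 largest rises and falls, with Rnmt, Stat2, Irf9, Irf7, Irf3, Trim25, Cmtr1 and Ifnar1 in any case. Some genes that meet this rule are not reported here. Gene lists are described by counts and medians without a set test.

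The code was tested on simulated data drawn from these means and library sizes, with 200 genes changed by a log2 fold of 1. In the comparison of Rnmt cKO with control the exact test recovered 94.5% of them and called 4 unchanged genes among 12347. The 16 alternatives were other scalings, filters and tests (DESeq2 1.42.0 among them), counts of both strands, a replicate block, a covariate and each library left out.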

Additional observations from a re-analysis of the deposited data

How the results depend on the processing

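Of 160 values of the 10 sensing genes under 16 alternatives, 145 kept their direction and side of the threshold, 8 lost a call, 2 gained one and 5 changed sign. Ifih1, Ifit1, Eif2ak2 and Zbp1 were called under every alternative, and the count of sensing genes that rose stayed between 4 and 7. The value for Mavs changed sign with library size alone (0.12), without control library 3 (0.046) and without Rnmt cKO library 1 (0.019), and over the libraries left out it ranged from -0.050 to 0.046. That for Ifit2 became 0.023 with library size alone. That for Adar became 0.079 with library size alone. None of these was called. Ddx58 was called with library size alone (0.36) and with the share of reads in no gene as a covariate (0.25, adjusted p = 0.00839). Ifit3 was not called by the quasi-likelihood test (1.04, adjusted p = 0.0607) or DESeq2 (1.03, adjusted p = 0.209).

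Same-numbered libraries did not deviate together (r = -0.21, -0.02 and -0.35), while r ranged from -0.29 to 0.35 for differently numbered ones. With 3 libraries per group, these values give no sign of a pairing by number but cannot exclude one. With the replicate block Dhx58 lost its call (0.79, adjusted p = 0.0826), 5 sensing genes rose, and 10 of the 78 genes of the lists rose. Leaving out 1 library at a time gave 10 to 22 genes of the lists that rose, 10 being without control library 3 or without Rnmt cKO library 1, and 1 to 4 that fell, 1 being without control library 1. The genes that fell numbered 1 with library size alone and without a filter, and 7 with the covariate.

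Over all tested genes, 987 rose and 844 fell, against 1939 and 535 with library size alone, 431 and 276 with the block and 1696 and 1466 with the covariate. Without control library 1, 559 fell. Without control library 2, 656 rose and 560 fell. Without Rnmt cKO library 2, 643 rose and 547 fell, and without Rnmt cKO library 3, 1285 fell. The cause of these changes was not tested. Counts of 1439 to 12147 reads per member over 6 libraries, with 3 libraries per group, limit the precision of each value.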
